A study of Arabidopsis thaliana with 4 samples.

Results

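The genes described here are 10 cold- and dehydration-regulated genes of the model plant Arabidopsis thaliana. They are RD29A (AT5G52310), RD29B (AT5G52300), RAB18 (AT5G66400), COR47 (AT1G20440), ERD10 (AT1G20450), COR15A (AT2G42540), COR15B (AT2G42530), KIN1 (AT5G15960), KIN2 (AT5G15970) and LTI30 (AT3G50970), a set given by locus identifiers and put together with earlier results of these data known, and they are 10 of the 37686 genes in the deposited table. RNA of the wild-type accession Col-0 was sequenced from the wounded end of leaves cut off with part of the petiole, a tissue that can form new roots. In the first group the explants had been kept in the dark for 2 days at 22 °C on sucrose-containing B5 medium, and in the second they were taken at time 0, before culture. Each group has 2 libraries. All leaves came from seedlings 12 days old grown at 22 °C in days of 16 h light and nights of 8 h, so that detachment time, darkness, medium and age differ together between the groups and cannot be told apart. The time of day at sampling is not among the sample details used here and may differ as well. Levels are TPM, transcripts per 1000000, which are scaled by transcript length and can be compared between genes. The depth behind them is unknown, and separate plants or cultures are not stated for the libraries within a group, so that the p-values measure the spread between these libraries only, which may be technical.

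Dehydrins are highly hydrophilic proteins of the late embryogenesis abundant (LEA) class that accumulate in drying, chilled or abscisic acid-treated tissue and bind membranes and other proteins. RAB18, COR47, ERD10 and LTI30 are dehydrins. COR15A and COR15B encode small LEA-like proteins that are imported into chloroplasts and protect their membranes during freezing, KIN1 and KIN2 encode small hydrophilic proteins, and RD29A and RD29B encode large hydrophilic proteins that serve as standard reporters of cold, drought and abscisic acid. The genes are known to be switched on by CBF and DREB2 factors, which bind the C-repeat or dehydration-responsive element (CRT/DRE), and by ABF factors, which bind the abscisic acid-responsive element (ABRE) after SnRK2 kinases have phosphorylated them.

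The 250 bases before the annotated gene start were searched on both strands for the core letters of these elements, CCGAC for the CRT/DRE and ACGTG for the ABRE. The CRT/DRE core occurred in 4 of the 10 genes, against 12.0% of 27443 nuclear protein-coding genes, and the ABRE core in 5 of the 10, against 22.9%. Of the longer forms, ACCGAC or GCCGAC occurred in 4 genes, against 7.1% of all, and ACGTGNC in 2, against 8.6%. In a window of 500 bases, chosen after the data were seen, the shorter cores occurred in 7 and 6 genes, against 21.4% and 35.5% of all genes. The promoters of the 4 genes with a CRT/DRE core are printed because their transcripts did not move in the same direction, and those of KIN1 and KIN2 because these neighbours are alike in sequence and differed in direction. They are given 5′ to 3′ on the strand of the gene, from the RefSeq assembly TAIR10.1, with matches to either core in capitals (GTCGG and CACGT are the cores on the opposite strand). The LTI30 stretch begins right after a neighbouring gene and has 214 bases.

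RD29A (chr5:21240467-21240716, plus strand): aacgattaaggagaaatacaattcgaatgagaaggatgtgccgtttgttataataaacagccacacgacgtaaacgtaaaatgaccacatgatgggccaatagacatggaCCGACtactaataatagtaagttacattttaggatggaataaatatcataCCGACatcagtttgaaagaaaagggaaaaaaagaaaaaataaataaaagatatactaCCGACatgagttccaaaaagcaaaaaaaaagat
RD29B (chr5:21236771-21237020, plus strand): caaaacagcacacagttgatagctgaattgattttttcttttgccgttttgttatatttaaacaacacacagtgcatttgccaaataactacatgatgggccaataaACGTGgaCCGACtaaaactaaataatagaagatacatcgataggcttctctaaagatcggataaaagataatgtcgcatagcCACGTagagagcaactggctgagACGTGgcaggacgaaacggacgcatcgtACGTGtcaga
COR15A (chr2:17712331-17712580, minus strand): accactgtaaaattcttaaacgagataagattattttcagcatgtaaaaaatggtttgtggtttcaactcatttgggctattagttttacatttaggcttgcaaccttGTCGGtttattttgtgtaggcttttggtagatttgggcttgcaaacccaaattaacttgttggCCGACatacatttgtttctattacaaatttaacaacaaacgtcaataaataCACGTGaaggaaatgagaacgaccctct
LTI30 (chr3:18940429-18940642, plus strand): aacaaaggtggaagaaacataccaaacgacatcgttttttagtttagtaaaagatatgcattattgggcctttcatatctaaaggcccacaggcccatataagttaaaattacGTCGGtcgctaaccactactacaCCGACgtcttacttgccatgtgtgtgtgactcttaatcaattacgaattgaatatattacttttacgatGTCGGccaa
KIN1 (chr5:5209467-5209716, plus strand): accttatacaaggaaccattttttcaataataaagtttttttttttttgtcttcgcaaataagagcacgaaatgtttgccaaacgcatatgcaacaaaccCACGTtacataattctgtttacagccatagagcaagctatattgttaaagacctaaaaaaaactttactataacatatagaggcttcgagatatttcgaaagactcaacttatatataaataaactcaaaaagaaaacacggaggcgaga
KIN2 (chr5:5211469-5211718, plus strand): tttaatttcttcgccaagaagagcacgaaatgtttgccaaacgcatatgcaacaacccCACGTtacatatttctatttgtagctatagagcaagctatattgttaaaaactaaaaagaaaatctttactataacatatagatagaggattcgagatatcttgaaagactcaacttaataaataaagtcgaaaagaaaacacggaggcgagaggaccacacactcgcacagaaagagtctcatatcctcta

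In these windows RD29A and LTI30 each held 3 CRT/DRE cores and no ABRE core, and the 2 genes lay on opposite sides of the comparison. RD29B held 4 ABRE cores and 1 CRT/DRE core. COR15A held 2 CRT/DRE cores and the palindrome CACGTG, which counts as a match on each strand. RAB18 held 3 ABRE cores and no CRT/DRE core, KIN1 and KIN2 held 1 ABRE core each, and COR47, ERD10 and COR15B held neither core in 250 bases. The window of RAB18 lies wholly inside the neighbouring gene AT5G66410, and that of COR15B lies inside COR15A except for 7 bases, so that their counts describe the body of another gene. The matches are descriptions of these windows and were not tested for use in the explants. Every window ends at the annotated gene start, and sequence beyond that start was not searched. A core that is absent here can therefore still lie near the gene, in RD29A as in the others.

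**Figure D1:**
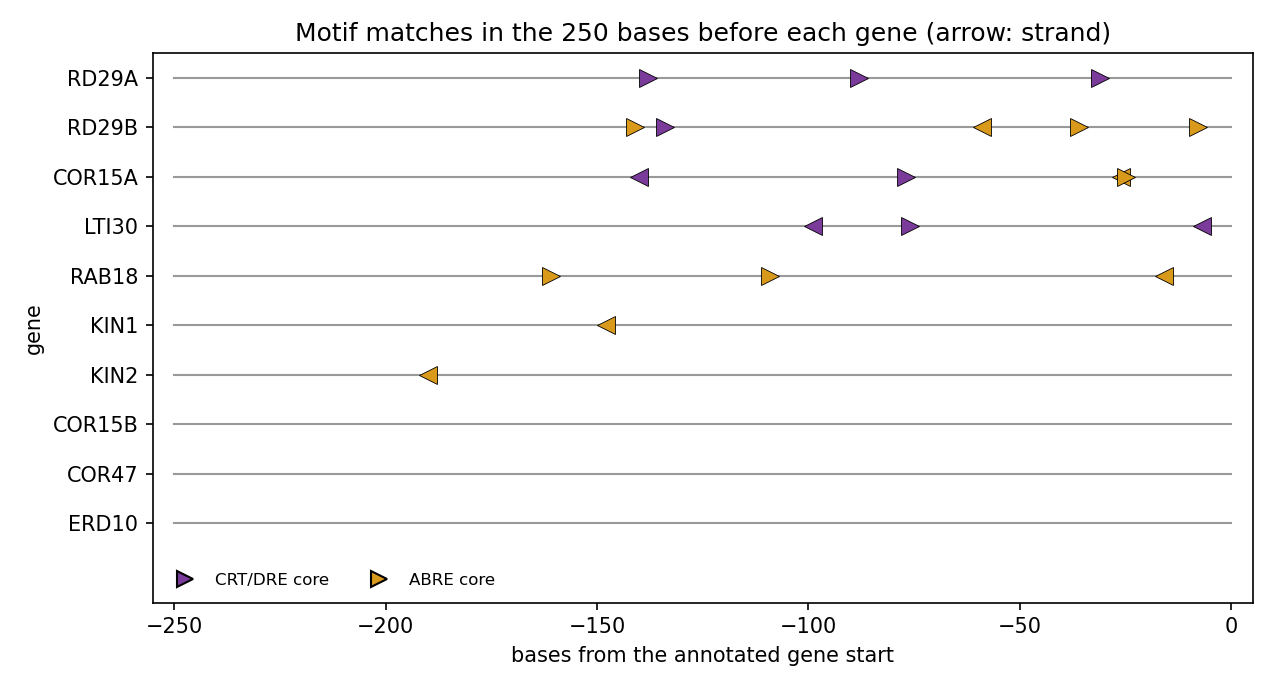
Matches to the CRT/DRE core (purple) and the ABRE core (yellow) in the 250 bases before the annotated start of each gene, with arrows for the strand and the x axis in bases from the start. RD29A, RD29B, COR15A and LTI30 are the genes with a CRT/DRE core, and COR15B, COR47 and ERD10 have neither core here, where the windows of RAB18 and COR15B lie wholly or almost wholly inside a neighbouring gene.

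Of the 19078 genes whose mean reached 1 TPM, 68.8% differed between 2 days and time 0 (limma on log2(TPM + 1), adjusted p below 0.05), with 39.2% higher and 29.5% lower at 2 days. The 2 groups did not overlap in 86.0% of the tested genes. The median log2 difference of all tested genes was 0.09, and it was -0.06 after quantile normalization and -0.02 when organelle genes and the 100 most abundant genes were left out of the scaling. Marker genes of the labelled tissue were present in all libraries and moved as well. The sum of 4 mesophyll photosynthesis markers was 10494 and 8397 TPM at 2 days, against 48389 and 46229 TPM at time 0, with 4 of 4 lower. The sum of 4 guard cell lineage markers was 25.6 and 22.7 TPM at 2 days, against 50.8 and 54.6 TPM at time 0, with 3 of 4 lower. The sum of 4 phloem and xylem markers was 147 and 152 TPM at 2 days, against 179 and 175 TPM at time 0, with 1 of 4 lower and 3 not past the threshold. The sum of 4 epidermis and trichome markers was 697 and 670 TPM at 2 days, against 432 and 429 TPM at time 0. Of these, 1 was higher, 2 were lower and 1 was not past the threshold. The rise of this sum came from KCS6, at 624.01 and 611.30 TPM at 2 days, against 304.82 and 305.02 TPM at time 0. ATML1 and GL2 were the 2 lower genes, and PDF2, not past the threshold, was also below time 0 in both 2-day libraries. In such bulk samples fewer cells of a type and less RNA per cell cannot be told apart, and the part of these shifts in the results below was not tested.

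The 10 genes did not move as a block. At 2 days 3 of the 9 tested genes (RD29A, ERD10 and KIN1) were higher than at time 0 and 6 (RAB18, COR47, LTI30, COR15A, COR15B and KIN2) were lower, while RD29B was below the level for testing. All 9 of the tested genes were thus called, where 68.8% of all tested genes were. None of the 9 had overlapping groups, which was so in 86.0% of all tested genes. The median log2 difference of the 9 was -0.61. The summed level of the 10 genes was 1662 and 1536 TPM at 2 days, against 1564 and 1569 TPM at time 0, so that the groups overlapped (exact two-sided permutation p = 1.0, with 0.333 the smallest that 2 against 2 libraries allow). COR47 and ERD10 made up 78.7% and 79.7% of that sum at 2 days, against 72.6% and 72.5% at time 0. The other 8 genes summed to 353.5 and 312 TPM at 2 days, against 429 and 431 TPM at time 0.

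**Figure D2:**
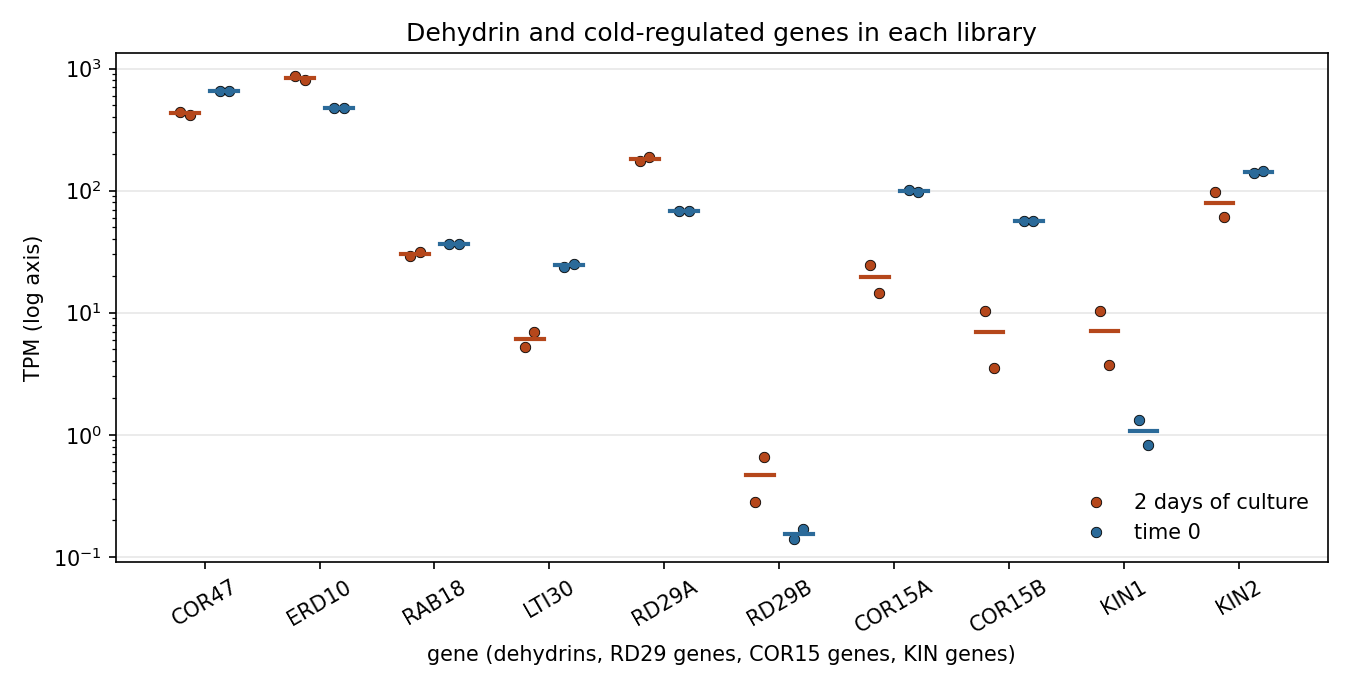
TPM of the 10 genes on a log axis, with 1 point per library and a bar at the mean of 2 libraries, for 2 days of culture (left, red-brown) and time 0 (right, blue). ERD10, RD29A and KIN1 lie higher at 2 days, while COR15A, COR15B and LTI30 show the largest falls and the COR15 and KIN points of the 2-day group lie farther apart than those of time 0.

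COR47 and ERD10 are acidic dehydrins encoded side by side on chromosome 1 (chr1:7084409-7086873 and chr1:7087903-7089606 in TAIR10.1, minus strand, 1029 bases apart), and they moved in opposite directions. ERD10 stood at 866.96 and 803.95 TPM in the 2-day libraries, against 477.64 and 478.75 TPM in the time 0 libraries. It was 1.75-fold higher at 2 days (log2 difference 0.80, SE 0.06, limma adjusted p = 0.000213). COR47 stood at 441.74 and 420.07 TPM at 2 days, against 657.86 and 659.43 TPM at time 0. It was 1.53-fold lower at 2 days (log2 difference -0.61, SE 0.05, limma adjusted p = 0.000377). In neither gene did the groups come near each other, and the spread between libraries of a group was at most 44.6 TPM (SD, n = 2). The order of the neighbours thus turned over: COR47 made up 33.8% and 34.3% of their joint level at 2 days, against 57.9% and 57.9% at time 0. ERD10 ranked 116 among the 19078 tested genes by mean level at 2 days and 254 at time 0, and COR47 ranked 332 at 2 days and 175 at time 0.

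RAB18, a glycine-rich dehydrin known as an abscisic acid marker, changed least. It stood at 29.32 and 31.43 TPM at 2 days, against 36.60 and 36.51 TPM at time 0. The groups did not overlap, and the gene was 1.20-fold lower at 2 days (log2 difference -0.26, SE 0.06, limma adjusted p = 0.0144). This call was lost without time 0 replicate 1 (limma adjusted p = 0.101), without time 0 replicate 2 (0.0976) and with time 0 entered as 1 averaged library (0.0999), in a range of 0.00339 to 0.101 over 13 alternatives. LTI30, a lysine-rich basic dehydrin that binds membranes, stood at 5.28 and 6.98 TPM at 2 days, against 23.83 and 25.15 TPM at time 0. Every 2-day library was below every time 0 library, by 4.0-fold in the means (log2 difference -1.85, SE 0.13, limma adjusted p = 0.000171).

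RD29A and RD29B lie side by side on chromosome 5 (chr5:21240717-21243644 and chr5:21237021-21239531 in TAIR10.1, plus strand, 1185 bases apart), and RD29A was by far the more abundant in every library. RD29A stood at 175.51 and 190.10 TPM at 2 days, against 67.68 and 68.59 TPM at time 0. It was 2.68-fold higher at 2 days (log2 difference 1.41, SE 0.06, limma adjusted p = 3.41e-05), with groups far apart. RD29B, the member of the pair that is known to depend most on abscisic acid, stood at 0.28 and 0.66 TPM at 2 days, against 0.14 and 0.17 TPM at time 0. It was below the mean of 1 TPM required for testing, and without a filter it did not pass (log2 difference 0.34, limma adjusted p = 0.129). RD29A was 99.8% and 99.7% of the joint level at 2 days, against 99.8% and 99.8% at time 0.

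Both COR15 genes fell. COR15A stood at 24.80 and 14.50 TPM at 2 days, against 102.11 and 97.98 TPM at time 0. It was 5.09-fold lower at 2 days (log2 difference -2.34, SE 0.24, limma adjusted p = 0.000611). COR15B stood at 10.28 and 3.52 TPM at 2 days, against 56.77 and 56.34 TPM at time 0. It was 8.20-fold lower at 2 days (log2 difference -3.01, SE 0.42, limma adjusted p = 0.00197). For both genes all 2-day values lay far below all time 0 values, while the 2-day libraries differed from each other by 1.71-fold in COR15A and 2.92-fold in COR15B, with replicate 1 higher. The difference of COR15A was -1.97 without 2-day replicate 2 and -2.70 without 2-day replicate 1. That of COR15B was -2.35 without 2-day replicate 2 and -3.67 without 2-day replicate 1. The COR15 proteins act in chloroplasts. The mesophyll photosynthesis markers listed above had a median log2 difference of -2.68, and whether the COR15 falls are related to theirs was not tested. Of the 50-base windows of the COR15B transcript, 27.3% overlap AT2G42520 on the opposite strand, a gene at 29.6 and 30.3 TPM at 2 days, against 28.3 and 28.2 TPM at time 0. If strand was not used in counting, reads of these 2 genes cannot be told apart there.

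KIN1 and KIN2 lie 892 bases apart on chromosome 5 (chr5:5209717-5210826 and chr5:5211719-5212743 in TAIR10.1, plus strand) and have coding sequences of 201 bases that are 95.0% identical. KIN1 stood at 10.36 and 3.73 TPM at 2 days, against 1.31 and 0.82 TPM at time 0. The groups did not overlap, and KIN1 was 6.62-fold higher at 2 days (log2 difference 1.84, SE 0.43, limma adjusted p = 0.0130). KIN2 stood at 97.67 and 61.34 TPM at 2 days, against 140.34 and 145.15 TPM at time 0. It was 1.80-fold lower at 2 days (log2 difference -0.87, SE 0.21, limma adjusted p = 0.0158). KIN1 thus made up 9.59% and 5.73% of the joint level at 2 days, against 0.925% and 0.562% at time 0.

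Neither KIN call held under every alternative. That of KIN1 was lost without time 0 replicate 2 (limma adjusted p = 0.0766) and with time 0 entered as 1 averaged library (0.0618), in a range of 0.00168 to 0.0766 over 12 alternatives. Its difference was 1.21 without 2-day replicate 1 and 2.47 without 2-day replicate 2, and it was 0.93 with a pseudocount of 5 and 2.47 with 0.1. That of KIN2 was lost without time 0 replicate 1 (limma adjusted p = 0.0722), without time 0 replicate 2 (0.0819) and with that averaged library (0.0770), in a range of 0.00189 to 0.0819 over 13 alternatives, and its difference was -0.54 without 2-day replicate 2 and -1.21 without 2-day replicate 1. Only 1.3% and 1.4% of the 50-base windows of KIN1 and KIN2 transcripts are the same in the other gene, but reads with a mismatch can still be divided between such copies, which leaves the level of KIN1 uncertain. The joint level of KIN1 and KIN2, which depends less on that division, was 108 and 65.1 TPM at 2 days, against 142 and 146 TPM at time 0.

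**Figure D3:**
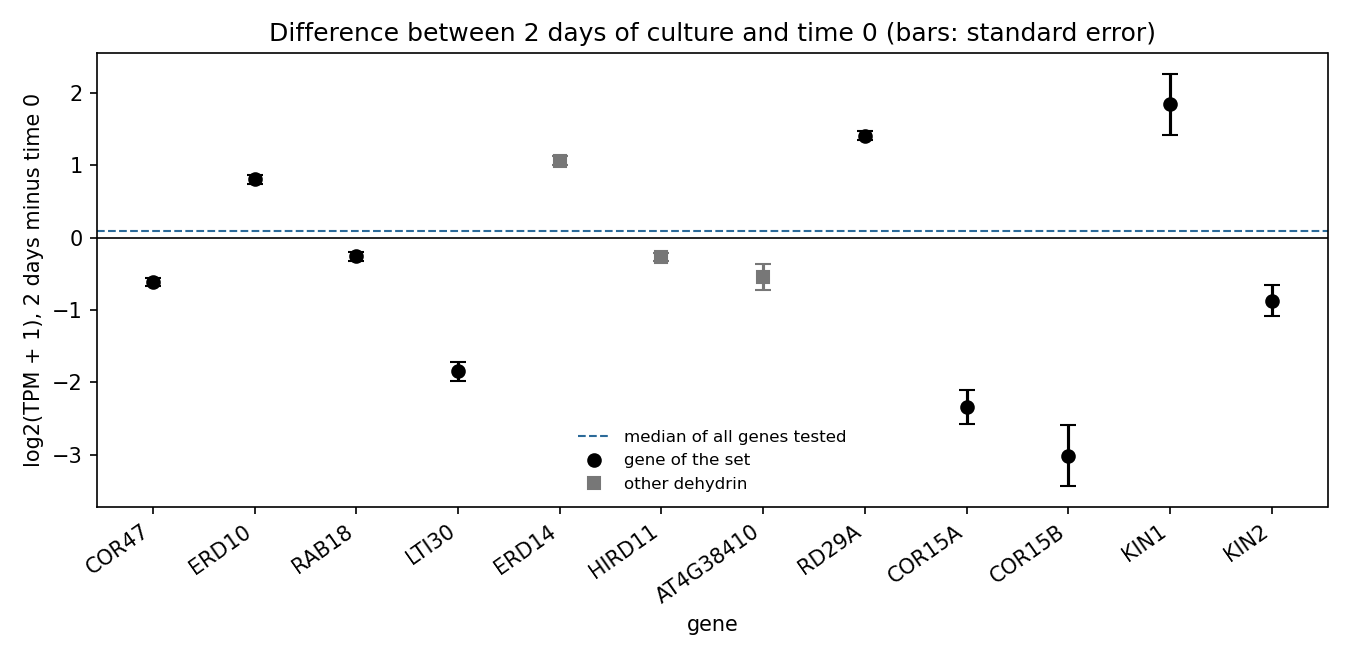
Log2 difference of TPM + 1 (2 days minus time 0) with its standard error for the 9 tested genes of the set (black circles) and the 3 other tested dehydrins (grey squares), and the median of all tested genes as a dashed line. Within the dehydrins at the left, ERD10 and ERD14 are higher and COR47, RAB18, LTI30, HIRD11 and AT4G38410 lower at 2 days.

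The RD29, COR15 and KIN genes, COR47 with ERD10, and LTI30 with its neighbour XERO1 were each read against the gene beside them in the same library. The log2 ratio of COR47 to ERD10 was -0.97 and -0.93 at 2 days, against 0.46 and 0.46 at time 0. That of KIN1 to KIN2 was -3.12 and -3.72 at 2 days, against -5.94 and -6.33 at time 0. That of COR15A to COR15B was 1.19 and 1.78 at 2 days, against 0.84 and 0.79 at time 0. That of RD29A to RD29B was 7.11 and 6.85 at 2 days, against 5.91 and 5.89 at time 0. The LTI30 to XERO1 ratio was 2.474 and 2.996 at 2 days, against 4.634 and 4.709 at time 0. On this scale, with 1 TPM added to each level, the ratios of 2 days and time 0 did not overlap in any of the 5 comparisons, and each had an exact two-sided permutation p of 0.333, the smallest that this design allows (0.333 adjusted over the 5). For RD29A and RD29B this rests on the pseudocount: with 0.1 TPM added the ratio changed by 0.34 in place of 1.07, with an exact two-sided permutation p of 1, and the shares of RD29A in the joint level overlapped between the groups. XERO1 stood at 0.13 and 0.00 TPM at 2 days, against 0.00 and 0.00 TPM at time 0. Its ratio with LTI30 therefore largely repeats the fall of LTI30, and its size depends on the pseudocount. The change was -1.94, and -2.59 with 0.1 TPM added. LTI30 made up 97.6% and 100% of the joint level at 2 days, against 100% and 100% at time 0, so these shares overlapped. The coding sequences of the neighbours are 56.2% identical for RD29A and RD29B, 73.5% for COR47 and ERD10, 82.6% for COR15A and COR15B and 95.0% for KIN1 and KIN2. The 250 bases before their starts are 54.2% identical for RD29A and RD29B, 46.1% for COR47 and ERD10 and 62.7% for KIN1 and KIN2. They are 48.1% identical for LTI30 and XERO1. For COR15A and COR15B the value is 44.3%, although the COR15B window lies almost wholly inside COR15A. Identity between unrelated windows was not computed, so values near these are not a sign of likeness.

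**Figure D4:**
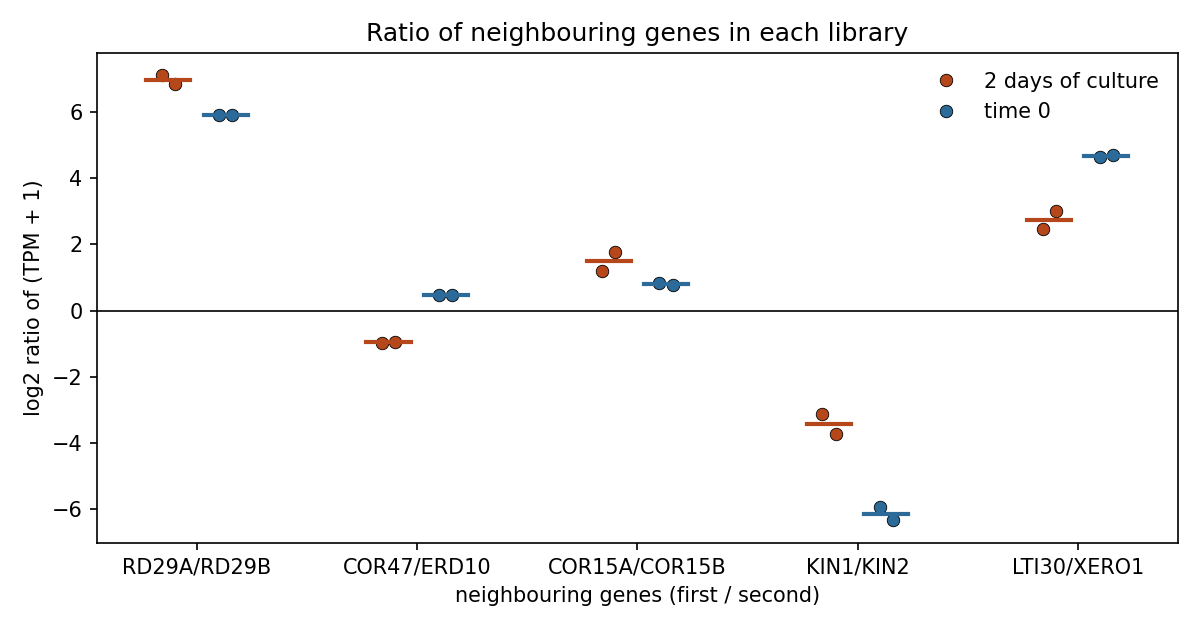
Log2 ratio of TPM + 1 of neighbouring genes in each library, with 1 point per library and a bar at the mean, for 2 days (left, red-brown) and time 0 (right, blue). The COR47/ERD10 ratio lies below 0 at 2 days and above 0 at time 0, and the KIN1/KIN2 ratio stays below 0 in all libraries.

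The Arabidopsis genome holds further dehydrins, and 6 of them were examined beside the 4 above. ERD14, an acidic dehydrin related to ERD10 and COR47, stood at 1902.94 and 1812.46 TPM at 2 days, against 878.03 and 903.39 TPM at time 0. Like ERD10 it was higher at 2 days, by 2.09-fold (log2 difference 1.06, limma adjusted p = 8.45e-05). HIRD11, a short dehydrin that binds metal ions, stood at 827.59 and 860.19 TPM at 2 days, against 1030.76 and 1005.17 TPM at time 0. It was lower at 2 days (log2 difference -0.27, limma adjusted p = 0.00894), and so was AT4G38410, at 0.82 and 0.45 TPM at 2 days, against 1.45 and 1.3 TPM at time 0 (log2 difference -0.55, limma adjusted p = 0.0440). Both of these falls lost their call without time 0 replicate 1 (limma adjusted p = 0.161 for HIRD11 and 0.156 for AT4G38410) and without time 0 replicate 2 (0.121 and 0.110), and with time 0 averaged (0.138 and 0.133). That of HIRD11 was also lost after quantile normalization (limma adjusted p = 0.0847, over a range of 0.00265 to 0.161), and that of AT4G38410 with a pseudocount of 0.1 (0.0518) and with the replicate number as a block (0.0599, over a range of 0.00349 to 0.156). The seed dehydrins XERO1 and LEA and the gene AT4G39130 were at or below 0.14 TPM in every library and were not tested. Transcripts of the 10 dehydrins together came to 4075 and 3936 TPM at 2 days, against 3106 and 3110 TPM at time 0. COR47, ERD10, ERD14 and HIRD11 made up 99.1% and 99% of that at 2 days, against 98.0% and 98.0% at time 0.

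Other cold-regulated genes also moved in both directions, with 4 of 11 tested genes higher, 6 lower and 1 not past the threshold. Their median log2 difference was -0.31. Among all tested genes 39.2% were higher and 29.5% lower, so that calls in both directions were common outside the list too. COR27, a repressor protein of the circadian clock that is also induced by cold, stood at 14.20 and 11.71 TPM at 2 days, against 189.60 and 198.22 TPM at time 0 (log2 difference -3.81, limma adjusted p = 1.13e-05). COR28, its relative, stood at 4.48 and 4.13 TPM at 2 days, against 31.63 and 33.30 TPM at time 0 (log2 difference -2.66, limma adjusted p = 1.38e-05). RCI2B, a small membrane protein, moved the other way, at 218.78 and 174.60 TPM at 2 days, against 16.48 and 17.78 TPM at time 0 (log2 difference 3.44, limma adjusted p = 1.97e-05). In these 3 genes, named for their large differences, the groups did not overlap, which was so in 86.0% of all tested genes.

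The CBF and DREB2 factors, which bind the CRT/DRE, were near the bottom of the measured range in both groups, with no value above 2.82 TPM in the 9 genes. Only DREB2A and DREB2B reached the level for testing, and neither passed in limma, where 1 of the 2 had an unadjusted p below 0.05. The count called lower was 2, DREB2A included, after quantile normalization, and 3 with no filter on low values, where CBF1 and DREB2C passed beside DREB2B. The CBF genes, singled out here because they are the classical cold activators, were below the level for testing. CBF1 stood at 0.17 and 0.00 TPM at 2 days, against 1 and 0.54 TPM at time 0, without overlap. CBF2 stood at 0.79 and 0.38 TPM at 2 days, against 0.39 and 0.51 TPM at time 0, and CBF3 at 0.47 and 0.23 TPM at 2 days, against 0.18 and 0.44 TPM at time 0, with overlapping groups in both. DREB2B, also outside the rule for named genes, stood at 0.96 and 0.75 TPM at 2 days, against 1.39 and 1.48 TPM at time 0 (limma adjusted p = 0.068). It was called lower under 6 of 12 alternatives, among them those without 2-day replicate 1 (limma adjusted p = 0.0178) and without 2-day replicate 2 (0.0406), and the adjusted p ranged from 0.00376 to 0.201. Another gene, on the opposite strand, overlaps 68.5% of its 50-base windows.

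Regulators that act on the CBF genes, or beside them, had 5 of 11 tested genes higher, 5 lower and 1 not past the threshold. Over all tested genes 39.2% were higher and 29.5% lower. The median log2 difference of these regulators was -0.14. MYB15, a factor that represses the CBF genes, stood at 16.75 and 14.95 TPM at 2 days, against 0.05 and 0.05 TPM at time 0 (log2 difference 4.0, limma adjusted p = 1.35e-05). ZAT12, a zinc finger protein of cold and oxidative stress, stood at 7.45 and 4.70 TPM at 2 days, against 0.74 and 0.63 TPM at time 0 (log2 difference 2.04, limma adjusted p = 0.000689). SCRM2, also called ICE2 and an activator of CBF genes, stood at 7.71 and 7.56 TPM at 2 days, against 19.80 and 21.00 TPM at time 0 (log2 difference -1.31, limma adjusted p = 7.90e-05). None of the 3 had overlapping groups, but they were named for their large differences, and 86.0% of all tested genes had no overlap.

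On the abscisic acid side, 3 of 9 tested ABRE-binding factors and SnRK2 kinases fell, 2 rose and 4 did not pass. Of all tested genes, 29.5% fell and 39.2% rose. The median log2 difference of the list was -0.01. ABF3, an activator of abscisic acid-responsive genes, stood at 105.54 and 102.12 TPM at 2 days, against 25.11 and 24.61 TPM at time 0 (log2 difference 2.02, limma adjusted p = 1.14e-05). The kinase gene SNRK2.3 stood at 16.37 and 15.02 TPM at 2 days, against 36.10 and 35.79 TPM at time 0 (log2 difference -1.15, limma adjusted p = 9.73e-05). ABF4 stood at 16.71 and 15.27 TPM at 2 days, against 21.18 and 22.39 TPM at time 0 (log2 difference -0.42, limma adjusted p = 0.00518). Its call was lost without time 0 replicate 2 (limma adjusted p = 0.0576, over a range of 0.00152 to 0.0576), where 1 gene of the list was called lower, and an opposite-strand gene overlaps 23.5% of its 50-base windows.

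Among other LEA proteins and genes that respond to abscisic acid or drought, 7 of 11 tested genes were higher and 4 lower. For all tested genes these shares were 39.2% and 29.5%. The list had a median log2 difference of 0.81 (0.04 over all 17 genes of the list, 6 of which were too low to test). P5CS1, an enzyme of proline synthesis, stood at 181.41 and 306.27 TPM at 2 days, against 27.87 and 26.96 TPM at time 0 (log2 difference 3.06, limma adjusted p = 0.000249). RD22, a drought-induced cell wall protein, stood at 998.78 and 1062.98 TPM at 2 days, against 191.23 and 183.18 TPM at time 0 (log2 difference 2.45, limma adjusted p = 1.09e-05). ERD1, a chloroplast protease regulator, stood at 51.31 and 40.22 TPM at 2 days, against 110.07 and 108.41 TPM at time 0 (log2 difference -1.25, limma adjusted p = 0.000483). The seed LEA genes EM1 and EM6 were listed at 0 in all 4 libraries.

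**Figure D5:**
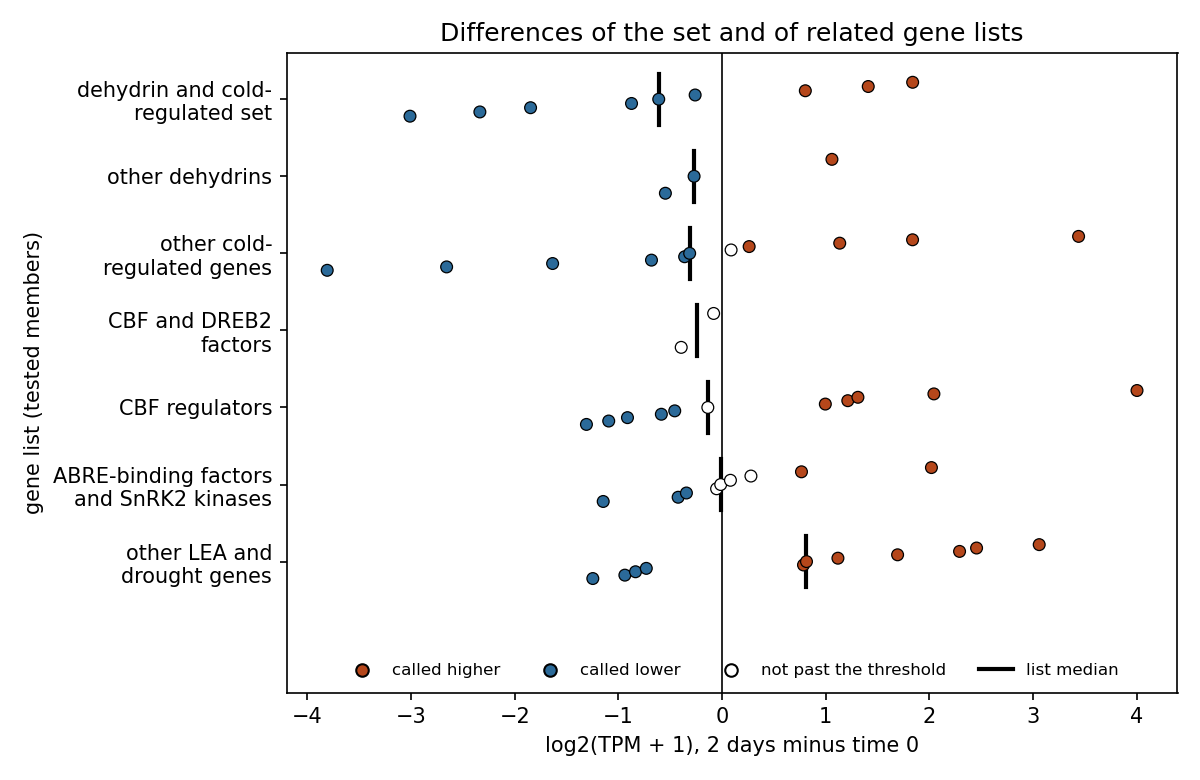
Log2 difference of TPM + 1 (2 days minus time 0) of the tested genes in the set and in 6 related lists, 1 point per gene, red-brown where called higher, blue where called lower and white where not past the threshold, with a black bar at the list median. Each list except the CBF and DREB2 factors holds genes called higher and genes called lower.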

How the data were processed

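RNA was sequenced in 4 libraries, 2 at 2 days of culture and 2 at time 0, grouped by their titles. The authors deposited 1 table of TPM, whose columns each sum to 1000000. Per the submitters' processing notes, the tools were RSEM 1.3.2, STAR 2.7.2b and Trim Galore 0.5.0 and the build was TAIR10. The strand setting, the annotation release and any filter were not given in the sources used here. TPM keeps no depth, so no counting interval or count-based test was used.

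Genes whose mean reached 1 TPM were fitted in R 4.3.3 by limma 3.58.1 on log2(TPM + 1), with a mean-variance trend and Benjamini-Hochberg adjustment over 19078 genes. The procedure was also run on simulated libraries with known changes. In these most genes were unchanged, and depth and spread were assumed, unlike here, so that run does not check the calls. Log2 differences understate the change of low genes. Single values were tested by exact permutation with SciPy 1.17.1. The members and lists were chosen with earlier results of these data known. Named genes are the 10 members, 6 further dehydrins and, per other list, the 2 called genes with the largest difference in the prevailing direction (those that rose where equal) and 1 in the other. All 90 list genes matched a RefSeq locus tag.

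Names, coordinates, promoters and windows of 50 bases shared between transcripts came from the RefSeq assembly TAIR10.1, apart from the deposited values, with Python 3.11.15 and Biopython 1.88. Protein sequences were not used here. Figures were drawn with matplotlib 3.10.9. The alternatives were other pseudocounts, filters and scalings, no trend, a replicate block and leaving out each library, and, added after seeing the data, averaging the time 0 libraries and a promoter window of 500 bases.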

Additional observations from a re-analysis of the deposited data

How the results depend on the processing

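RD29A, COR47, ERD10, COR15A, COR15B and LTI30 kept their direction and their call under all 13 alternatives. The direction of RAB18, KIN1 and KIN2 held as well, but their calls were lost with the time 0 libraries averaged (log2 differences -0.26, 1.83 and -0.87), an alternative chosen after seeing the data because the time 0 libraries differed less (median absolute log2 gap 0.071) than the 2-day libraries (0.118). Leaving out 1 library gave -0.31 to -0.21 for RAB18, 1.21 to 2.47 for KIN1 and -1.21 to -0.54 for KIN2, and it left each of these uncalled in at least 1 case. The summed level of the 10 genes, which had a log2 difference of 0.03, turned to -0.10 after rescaling without organelle and the most abundant genes and to -0.51 without ERD10, its most abundant member. With 1 library left out it ran from -0.0282 (without 2-day replicate 1) to 0.0855 (without 2-day replicate 2). Over all tested genes 57.05% of called genes were higher, and 47.05% after quantile normalization (6385 higher and 7187 lower, against 7485 and 5636). Replicate numbers did not pair the libraries (correlation of same-numbered deviations -0.07 across 19078 genes), and with a replicate block 7101 genes were higher and 5283 lower, with 9 of 9 tested members still called. The depth behind values near or below 1 TPM, such as those of RD29B and the CBF genes, is unknown.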

Other observations

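The 4 small cold-regulated genes that are not dehydrins were unevenly expressed between the 2-day libraries. COR15A, COR15B, KIN1 and KIN2 were all higher in 2-day replicate 1 than in replicate 2, by 1.71-fold, 2.92-fold, 2.78-fold and 1.59-fold. Their absolute log2 gaps between the 2-day libraries lay at the 97.3, 99, 98.9 and 96.8 percentiles of all tested genes, of which 59.6% were higher in replicate 1. COR47 and ERD10 lay at the 32.6 and 46.9 percentiles, and RAB18 and RD29A at the 42.5 and 48.8 percentiles. LTI30 was lower in replicate 1 than in replicate 2, at the 88.8 percentile. RD29B, too low to test, was lower in replicate 1 as well, at 0.28 TPM against 0.66 TPM in replicate 2. The percentiles were not matched for level. COR15B and KIN1 stood at or below 10.36 TPM at 2 days, while COR47, ERD10 and RD29A stood at or above 175.51 TPM. Large gaps were not limited to the COR15 and KIN genes, and they ran in both directions. ZAT10, ZAT12 and the mesophyll marker CA1 were higher in 2-day replicate 1, at the 96.7, 95.7 and 98.5 percentiles. P5CS1 and RAP2.1 were higher in 2-day replicate 2, at the 97.5 and 95.4 percentiles. LEA4-5 was also higher in replicate 2, at the same percentile as COR15B. Between the time 0 libraries the gaps of COR15A, COR15B and KIN2 lay at the 43.6, 9.5 and 37.0 percentiles and that of KIN1 at the 95.7 percentile. This pattern was noticed in the data, and nothing in the labels tells the 2-day libraries apart other than their number.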
